A study of Mus musculus with 4 samples.

Results

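The Cwc22 locus is a stretch of mouse chromosome 2 around the genes Cwc22 and Zfp385b in which the local background behind ATAC-seq peaks was raised in control libraries. Its members were the peaks on chromosome 2 from 77.3 to 78.4 Mb and from 83.5 to 84.1 Mb (mm10), 246 of the 342011 peaks in the 4 lists. The control libraries held 71 and 83 of them, and the BPA libraries 35 and 57. The stretch was selected on the peak numbers, widths, scores and backgrounds of these same libraries, so the differences between libraries in those measures are given as a description, without a test.

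The lists come from ATAC-seq, in which a transposase inserts adapters into open chromatin, on visceral adipose tissue of 8-week-old CD-1 mice. CD-1 is an outbred stock, and no siblings were mated. The 2 control and 2 BPA libraries, from 4 mice in all, are called control 1, control 2, BPA 1 and BPA 2. The BPA mice descended from dams given daily intraperitoneal bisphenol A at 50 mg/kg, and the controls from dams given the sesame oil vehicle, both on embryonic days 7.5 to 13.5. The sample titles place the BPA mice in the F3 generation, whereas the study's methods name F4. Sex, litter and batch are not labelled, so any of them cannot be told apart from treatment.

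Cwc22 encodes a spliceosome-associated protein that brings EIF4A3 to spliced RNA and so seeds the exon junction complex, which marks messages for export and for nonsense-mediated decay. The gene lies in a chromosome 2 segment, called R2d, that is known to occur in different numbers of copies in different mice. The reference carries the copy at the first window, and another copy has been placed farther along the chromosome in some mice, where the second window lies. Zfp385b encodes a zinc finger protein and is the next gene on the low-coordinate side. Chromatin that is open over a long domain and a stretch of DNA that is present in extra copies both add reads between peaks. Genomic DNA of these 4 mice was not analysed here, so copies of the segment and openness of its chromatin cannot be told apart. More cells with an open site and more open copies per cell cannot be told apart either.

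The sequences of greatest use here are the Cwc22 promoter, which held the strongest peak of the locus in both control lists, and 4 more sites that ranked among the 5 highest control pile-ups of the segment. The promoter is printed as the 250 bases before the Cwc22 start site, from RefSeq on GRCm38.p6 (the mm10 build), read on the minus strand. The other sequences are 75 bases either side of the summit in control 2, on the plus strand. All are reference sequence, not that of CD-1. Capitals mark matches on either strand to 6 short motifs: GGGCGG (SP1), CCAAT (NF-Y), CGGAAG (ETS factors), TGANTCA (AP-1), AGGTCA (a nuclear receptor half-site) and ACTACAA (the core of a ZNF143 site), the last added after the promoter had been read.
Cwc22 promoter, chr2:77946357-77946606: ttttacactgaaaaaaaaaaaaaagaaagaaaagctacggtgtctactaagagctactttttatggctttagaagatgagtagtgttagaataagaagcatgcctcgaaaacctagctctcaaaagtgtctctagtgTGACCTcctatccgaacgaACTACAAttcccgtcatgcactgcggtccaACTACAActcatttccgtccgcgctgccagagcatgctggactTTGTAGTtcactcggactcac
Cwc22 intron, in all 4 lists, chr2:77905941-77906091: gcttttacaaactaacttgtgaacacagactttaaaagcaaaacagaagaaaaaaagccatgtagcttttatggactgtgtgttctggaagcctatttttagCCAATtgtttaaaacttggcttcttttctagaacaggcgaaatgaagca
Intergenic, controls only, chr2:77951554-77951704: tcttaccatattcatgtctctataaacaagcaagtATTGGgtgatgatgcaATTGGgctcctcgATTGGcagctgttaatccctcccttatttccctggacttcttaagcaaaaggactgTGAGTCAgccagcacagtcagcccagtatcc
Intergenic, controls and BPA 2, chr2:77993367-77993517: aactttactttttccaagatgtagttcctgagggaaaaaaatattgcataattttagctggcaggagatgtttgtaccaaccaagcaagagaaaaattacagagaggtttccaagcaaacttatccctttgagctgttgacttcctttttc
Intergenic, controls only, chr2:78026800-78026950: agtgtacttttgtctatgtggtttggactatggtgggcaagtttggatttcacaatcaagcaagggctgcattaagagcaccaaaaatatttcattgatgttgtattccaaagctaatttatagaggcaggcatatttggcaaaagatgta

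The Cwc22 promoter held 3 ACTACAA cores and 1 AGGTCA half-site. Of 32851 RefSeq promoters, 2.81% held an ACTACAA core in the same 250 bases, 3 held 3 or more, and 14.0% held AGGTCA. The count of 3 may include the Cwc22 promoter itself. ACTACAA was added after that promoter had been read, so its share elsewhere is a description and no test. The controls-only site at 77951554 held 3 CCAAT boxes and 1 AP-1 match, and the Cwc22 intron site held 1 CCAAT box. Around control 2 summits of the first window, 28.8% of 59 sequences held CCAAT and 13.6% held AP-1. The shares of all promoters with the SP1, NF-Y, ETS and AP-1 motifs were 32.7%, 33.8%, 13.6% and 6.75%. A match describes letters only, and binding was not measured.

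Each value below was worked out from 2 columns of the deposited lists. The authors' peak caller gives a fold, the summit pile-up relative to the background nearby, and the Poisson −log10 p of that pile-up. Together they fix the whole-number pile-up and the background. The background multiple is the local background divided by the lowest background in the same list, which stands for the background of the genome at large. Backgrounds fell on an even ladder whose step is the worth of 1 read in the averaging window, so the lowest background equalled 226 and 268 reads in controls 1 and 2, and 89.0 and 237 reads in BPA 1 and 2. By this measure BPA 1 was the shallowest library, by a factor of 2.54 to 3.01. The window of a strong peak also counts the reads of that peak, so a multiple at a promoter is not free of the promoter's own height.

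The promoter of Cwc22 carried one of the strongest peaks of both control lists. The summit pile-up was 196 and 469 in controls 1 and 2, against 55 in BPA 1 and 187 in BPA 2. By the authors' q-value the peak ranked 10 of 82665 in control 1 and 7 of 88911 in control 2. It ranked 7588 of 72375 in BPA 1 and 7421 of 98060 in BPA 2. Relative to the lowest background the pile-up was 68.7 and 174 in controls 1 and 2 and 47.6 and 49.2 in BPA 1 and 2, so both controls lay above both BPA libraries and control 2 lay 2.53 times above control 1.

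The background around that promoter was raised along with the peak. The background multiple was 6.36 in control 1, with a 95% exact Poisson interval from 6.03 to 6.69. Control 2 had a multiple of 15.8 (15.3 to 16.2). The BPA libraries had multiples of 2.61 (2.28 to 2.97) and 3.49 (3.26 to 3.74). These intervals cover counting error only, from 1438, 4217, 232 and 827 reads, and do not cover differences between mice. The fold over local background ran the other way, at 10.3 and 10.8 in the controls and 13.9 and 13.2 in BPA. The same promoter thus stood higher in the controls by pile-up and lower by fold.

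**Figure D1:**
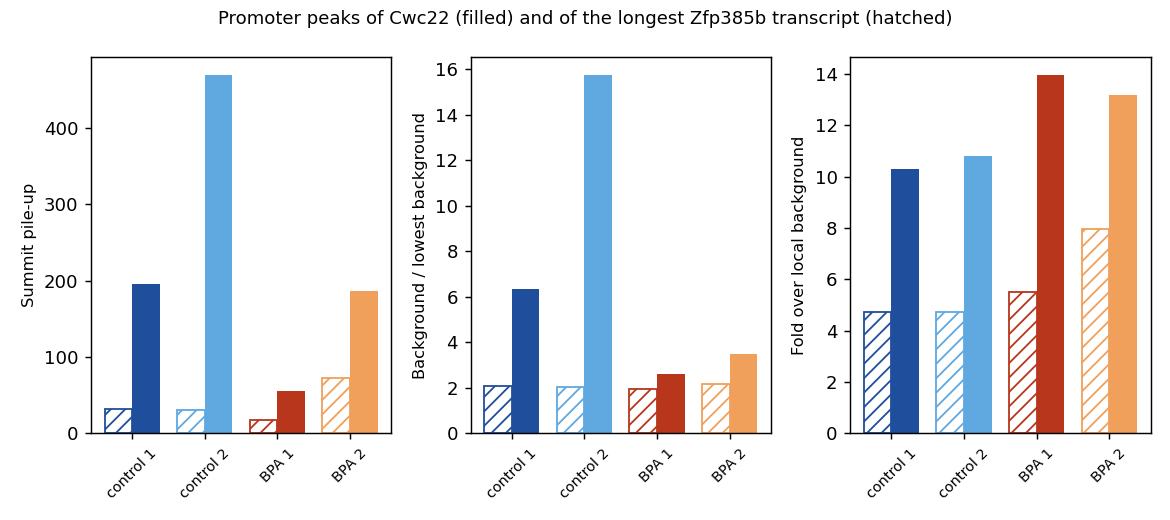
Summit pile-up, background multiple and fold over local background (vertical axes, from 0) at the promoter peaks of Cwc22 (filled bars) and of the Zfp385b start site at the high-coordinate end of the gene (hatched bars) in the 4 libraries, 1 bar per library with no error bar. For Cwc22 the pile-up of 469 in control 2 is the tallest bar, while the fold of both controls, 10.3 and 10.8, is below that of BPA 1 at 13.9.

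The raised background reached well beyond the promoter. Ordering the control peaks of the first window by position, the longest run with a multiple of at least 2 (allowing 1 lower peak in a row) spanned 187 kb, chr2:77863175-78050018. This run is called the segment. It held all of Cwc22 (chr2:77881159-77946356, minus strand), and the rest was intergenic apart from the pseudogene Gm13726 and the edge of the noncoding Gm52519. The control peaks next to it were at 77847752 and 77847795 on the low-coordinate side, with multiples of 1.72 and 1.68, and at 78117476 on the other, in control 2, with 1.00. The extent depends on the threshold: with a multiple of at least 3 the longest run spanned 82.0 kb, chr2:77869696-77951723, and with 1.5 it lay elsewhere in the window. Of all control peaks in the first window, those closest to the threshold of 2 were in the flank, with multiples of 1.99 and 1.99 below it and 2.00 and 2.05 above it.

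Inside the segment the median background multiple was 3.44 over 19 peaks of control 1 and 8.21 over 26 peaks of control 2, against 1.501 over 6 peaks of BPA 1 and 1.76 over 8 peaks of BPA 2. The group means were 5.83 ± 3.37 (SD, n = 2) in control and 1.63 ± 0.186 in BPA, a log2 ratio of 1.71. The lower control was 1.95 times the higher BPA library, yet the controls were farther apart than the BPA libraries, with an SD of 0.89 against 0.16 on the log2 scale. Without control 2 the log2 ratio was 1.08, and without control 1 it was 2.33. A multiple of at least 2 was reached by 15 of 19 peaks in control 1, 26 of 26 in control 2, 2 of 6 in BPA 1 and 2 of 8 in BPA 2. Over whole lists, 33.6%, 31.4%, 51.6% and 42.9% of peaks reached it in the same order. The control counts follow from how the segment was defined, so nothing is read from them.

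**Figure D2:**
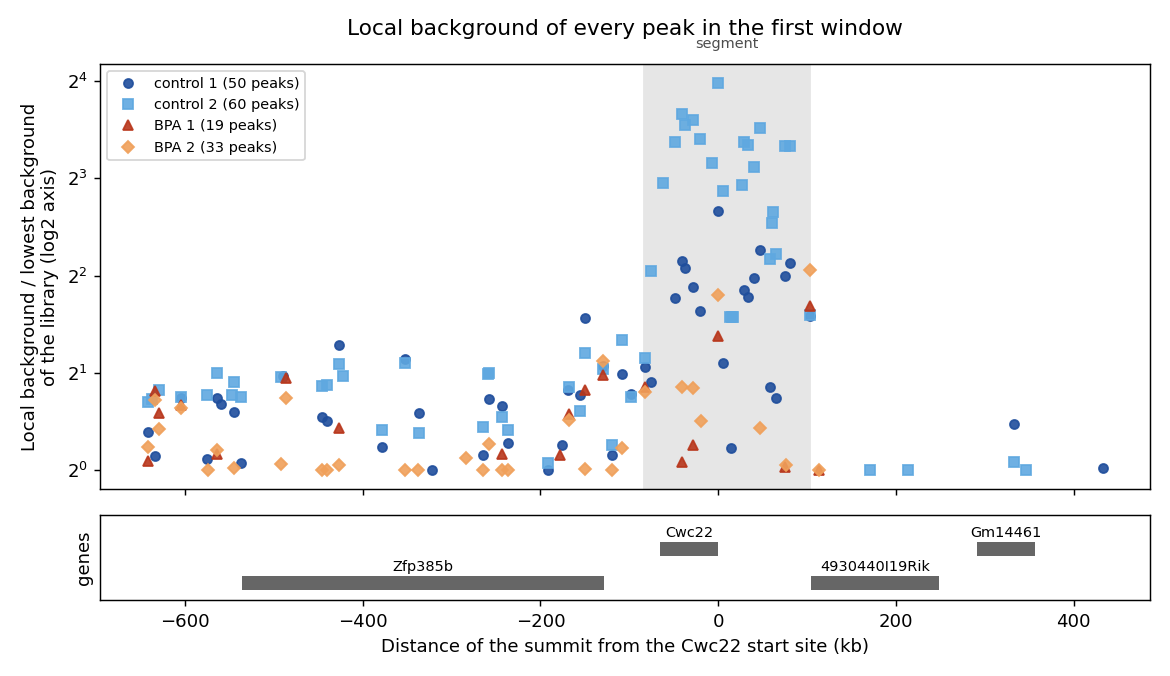
Background multiple (vertical log2 axis) of every peak of the first window against the distance of its summit from the Cwc22 start site in kb, with gene spans below and the segment in grey. Controls 1 and 2 climb to 6.36 and 15.8 over Cwc22, while in the segment most BPA peaks lie under 2, and outside it the 4 libraries lie at or below 2.95.

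The difference was small at the low-coordinate edge of the segment and ran the other way at the high-coordinate edge. At the low-coordinate edge, chr2:77863175-77864400, the multiples were 2.08 and 2.23 in the controls and 1.81 and 1.74 in BPA, a log2 ratio of 0.28, so that both controls still lay above both BPA libraries. At the high-coordinate edge, chr2:78048145-78050299, in an intron of Gm52519, they were 2.99 and 3.01 in the controls and 3.22 and 4.17 in BPA. Between them, from 77869696 to 78027138, an inner part of 157 kb had medians of 3.62, 8.79, 1.12 and 1.60 in controls 1 and 2 and BPA 1 and 2. This inner part was set after the values had been seen. Divided by the median of the flanks, it stood at 2.42 and 5.18 in controls 1 and 2, and at 0.752 and 1.54 in BPA 1 and 2.

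The rise in control 2 over control 1 ran along the whole inner part. At the 17 regions of the segment with a peak in both controls, control 2 exceeded control 1 in all 17, by a median of 2.52 times (quartiles 2.29 and 2.95). The smallest ratios, 1.07 and 1.01, were those of the outermost regions, and the other 15 were all above 2, up to 3.40. In the flanks the median ratio was 1.07 over 25 regions, and over 53990 autosomal regions it was 0.987. A ratio of at least 2 was found at 0.0574% of all such regions, 31 in number, of which 15 were in the segment. Among the 20 highest ratios of the autosomes, 15 belonged to the segment. Because the stretch was selected on the backgrounds of these libraries, nothing is read from that standing. Control 1 and control 2 received the same treatment, so these ratios describe 2 mice of 1 group. Neighbouring regions can share reads of an averaging window, so the ratios are not separate observations. Between BPA 2 and BPA 1 the median ratio in the segment was 1.32 over 6 regions.

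Some, but not all, of the lower control values in the raised stretch lay in repeated reference sequence. In the 10 kb from 77950001 to 77960000, 27.3% of 31-base words occurred once in the reference, and in the next 10 kb 46.1%, against 80.2% over the segment. The mean control 1 multiple there was 2.14 and 1.17, and that of control 2 was 5.14 and 2.98. The 3 control 2 peaks from 77959514 to 77963669 had the same multiple of 2.98. In the 10 kb from 78010001, where 26.8% of words occurred once, the multiples were 1.68 and 4.65. In contrast, the 10 kb from 77990001 had 65.8% of such words and multiples of 4.81 and 11.5, and the 10 kb from 77870001, near the low-coordinate edge, had 84.7% and multiples of 1.87 and 4.12. The authors kept uniquely mapped reads only. In the 15 bins of the segment with at least 80% of words found once, the medians were 3.65, 10.1, 1.501 and 1.79.

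Peaks were also denser in the segment in the controls. There were 10.2 and 13.9 peaks per 100 kb in controls 1 and 2 and 3.21 and 4.28 in BPA 1 and 2, against 3.39, 3.72, 1.42 and 2.74 in the flanks. The lowest pile-up listed was 5.19 times the lowest background in BPA 1, the shallowest library, and 2.90 to 3.33 times in the other libraries. BPA 2, whose depth lay between those of the controls, listed the most peaks over the genome, 98060, but 8 in the segment. Median widths overlapped between groups, at 930 and 789.5 bp in the controls and 804.5 and 979 bp in BPA. The medians of the authors' −log10 q overlapped too, at 10.8 and 19.8 against 11.3 and 21.4.

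The fold over local background was lower in the controls. Its segment median was 3.74 and 3.95 in controls 1 and 2 and 6.51 and 6.07 in BPA 1 and 2, or 3.84 ± 0.144 against 6.29 ± 0.310 (SD, n = 2). The log2 ratio was −0.71, and −0.16 among peaks with −log10 q of at least 5. Folds were lower in the controls over the whole lists too, with medians of 3.91 and 4.29 in controls 1 and 2 and 5.69 and 5.01 in BPA 1 and 2. Low folds were frequent in control 2, in which 42.3% of segment peaks had a fold under 3 against 13.8% of its whole list. The corresponding shares were 31.6% and 17.5% in control 1, 0% and 2.60% in BPA 1, and 12.5% and 11.1% in BPA 2. The segment peak of control 2 with the lowest fold, in a Cwc22 intron at chr2:77883686-77883882, had a fold of 1.83 over a multiple of 7.74.

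Merging the 4 lists gave 28 regions in the segment. A peak was present in all 4 libraries at 6, in both controls without BPA at 9, in control 2 alone at 9 and in control 1 alone at 2, and no region was listed in BPA only. Over the 147157 merged regions of the genome the corresponding shares were 26.3%, 5.33%, 12.1% and 11.9%, and 24.9% were listed in BPA only. In the flanks 4 of 43 regions were BPA only. By a stricter match, in which the control peaks overlap by 50% of both, 7 of 14 reproducible control regions in the segment had no BPA peak. The share over the genome was 11.6% of 41846. The flanks gave 4 of 20 and the second window 0 of 9. The stretch was selected on peak numbers and the segment was delimited by control peaks. The counts of regions by library thus follow in part from that choice, and nothing is read from their distance to the genome shares.

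Inside Cwc22, chr2:77905558-77907099 lay in an intron and was listed in all 4 libraries. The pile-up was 60 and 202 in the controls and 10 and 48 in BPA 1 and 2, over multiples of 4.45, 12.6, 1.06 and 1.80. The log2 ratio of control over BPA was 1.92 for the pile-up, the second largest of 37960 autosomal regions in all 4 lists, and 2.44 for the background, also the second largest. An intronic region at chr2:77916576-77918875 had multiples of 3.68, 12.1, 1.19 and 1.79 and a log2 background ratio of 2.19, the third largest. Both regions had control values above both BPA values for background, and their folds overlapped between groups or lay lower in controls. The stretch was selected on such values, so nothing is read from the ranks.

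Upstream of Cwc22, the first site from the promoter was chr2:77951223-77951723. It was listed in the controls only, with pile-ups of 32 and 172 and multiples of 2.14 and 7.30. The site at chr2:77992529-77994054 had pile-ups of 103 in control 1, 261 in control 2 and 32 in BPA 2 and no peak in BPA 1. Its multiples were 4.81, 11.5 and 1.35. Both sites were intergenic.

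Other sites lay near the far end of the inner part. At chr2:78021188-78022526, in all 4 lists, the pile-up was 73 and 165 in the controls and 14 and 27 in BPA 1 and 2, over multiples of 3.99, 10.0, 1.023 and 1.034. Its log2 ratios of control over BPA were 2.62 for background and 2.09 for pile-up, the largest of the 37960 regions in both. High ranks follow in part from how the stretch was selected, and nothing is read from them. The folds there were 5.97, 5.91, 6.87 and 5.68, within the same range in both groups. The site at chr2:78026332-78027138 was listed in the controls only, at pile-ups of 106 and 197 over multiples of 4.39 and 10.1.

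Over the 6 regions in all 4 lists, the median log2 ratio of the pile-up, scaled by the lowest background, was 1.30. That of the background was 1.96 and that of the fold −0.25. The libraries set the size of the pile-up ratio: without control 2 it was 0.49, and without control 1 it was 2.11. Both controls exceeded both BPA libraries in pile-up at 4 of 6 regions, against 3.66% of 37960 over the autosomes, and in background at 5 of 6, against 15.4%. The flanks showed the same order at 4 of 8 shared regions in pile-up and at 7 of 8 in background. Their median log2 ratios were smaller, at 0.18 and 0.45. Over all these autosomal regions the controls were lower, with a median log2 ratio of −1.01 for pile-up, −0.49 for background and −0.44 for fold. By these medians the controls were higher in pile-up and background in the segment and, by smaller ratios, in the flanks, but not in fold. The stretch was selected on these libraries' backgrounds, and the segment was delimited by control peaks. The order at shared regions thus follows in part from that choice, and nothing is read from its distance to the autosomal shares. The 2 shared regions of the segment whose pile-up was not higher in the controls were the outermost ones.

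**Figure D3:**
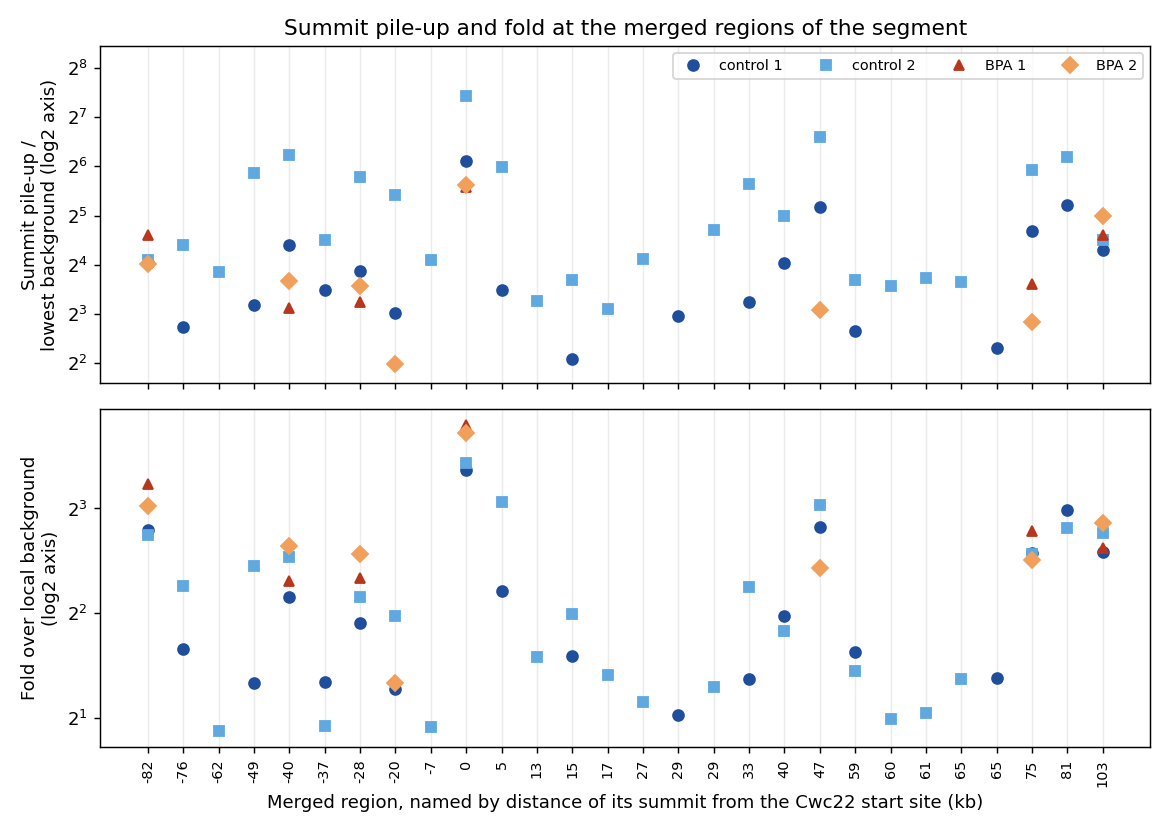
Summit pile-up divided by the lowest background of the library (upper panel) and fold over local background (lower panel), both on log2 axes, at the 28 merged regions of the segment in order of position, 1 symbol per library where it listed a peak. Control 2 is above control 1 in pile-up at all 17 regions they share. At the 6 regions with all libraries the log2 ratio of fold, control over BPA, runs from −0.42 to −0.07, with a median of −0.25.

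At Zfp385b, next to the segment, the libraries lay closer together than at Cwc22. The gene spans chr2:77410622-77817706 on the minus strand, and 3 of its 4 RefSeq start sites had a peak in all libraries. At the start site at 77816816 the pile-up was 32 and 30 in the controls and 17 and 73 in BPA 1 and 2. Relative to the lowest background it was 11.2 and 11.1 in the controls and 14.7 and 19.2 in BPA, so both BPA libraries lay above both controls. The multiples there were 2.10, 2.05, 1.97 and 2.18, which overlapped between groups. At the internal start site at 77519666 the multiples were 2.44 and 2.13 in the controls and 1.35 and 1.04 in BPA, and at 77703272 they were 1.58, 1.46, 1.12 and 1.00, so that both controls lay above both BPA libraries. Taking the best promoter peak of each library, that order was found at 2.7% of 13404 genes with a promoter peak in all 4 libraries. Zfp385b was not among them by that measure. Its multiples were then 2.44 and 2.13 in the controls and 1.97 and 2.18 in BPA, which overlapped between groups.

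Over the whole Zfp385b span there were 18, 18, 7 and 15 peaks in controls 1 and 2 and BPA 1 and 2, with median multiples of 1.54, 1.83, 1.495 and 1.01. The group means were 1.68 ± 0.205 and 1.25 ± 0.344 (SD, n = 2), and the lower control was 1.03 times the higher BPA library. Both controls were higher in background at 4 of 5 shared regions of the gene, against 15.4% of 37960 autosomal regions in all 4 lists. Zfp385b is part of the stretch selected on background, so nothing is read from that distance. The 4 regions included the intronic region chr2:77795024-77796632, with pile-ups of 50, 37, 11 and 17 and multiples of 2.95, 2.305, 1.77 and 1.01. The flanks as a whole, which include Zfp385b, had medians of 1.499, 1.698, 1.495 and 1.04 and a log2 ratio of 0.36, against an SD between replicates of 0.28. Beyond the segment on the other side, over the noncoding gene 4930440I19Rik and over Gm14461, there were 2, 4, 1 and 1 peaks in 350 kb, with multiples no higher than 1.39.

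In the second window, farther along the chromosome, the direction at the main promoters was opposite to Cwc22 but that of most promoters. Itgav, the integrin alpha V chain of receptors for extracellular matrix, had promoter pile-ups of 77, 61, 105 and 349 and multiples of 5.15, 3.75, 7.43 and 10.6 in controls 1 and 2 and BPA 1 and 2. Relative to the lowest background those pile-ups were 27.0, 22.6, 90.8 and 91.9. At Zc3h15, a zinc finger protein gene, the multiples were 3.48, 3.27, 4.62 and 5.79, and at Fam171b 2.33, 2.08, 2.48 and 2.80. Both BPA libraries were above both controls at each, as they were at 90.8% of 13404 genes with a promoter peak in all 4 libraries. Over the window the medians were 1.92, 1.46, 2.54 and 1.98, a log2 ratio of −0.42, which became 0.18 when each 10 kb counted once.

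A tandem array of 7 pseudogenes in this window, spaced 5810 bp apart from 83955605 to 83993518, had no peak in any library. There, 0.0765% of the 31-base words occurred once, so hardly any such word marks a single place. Of 153175 words of the segment with at most 5 copies in the reference, 31 also occurred in the second window. The reference thus holds little of the segment's sequence there.

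**Figure D4:**
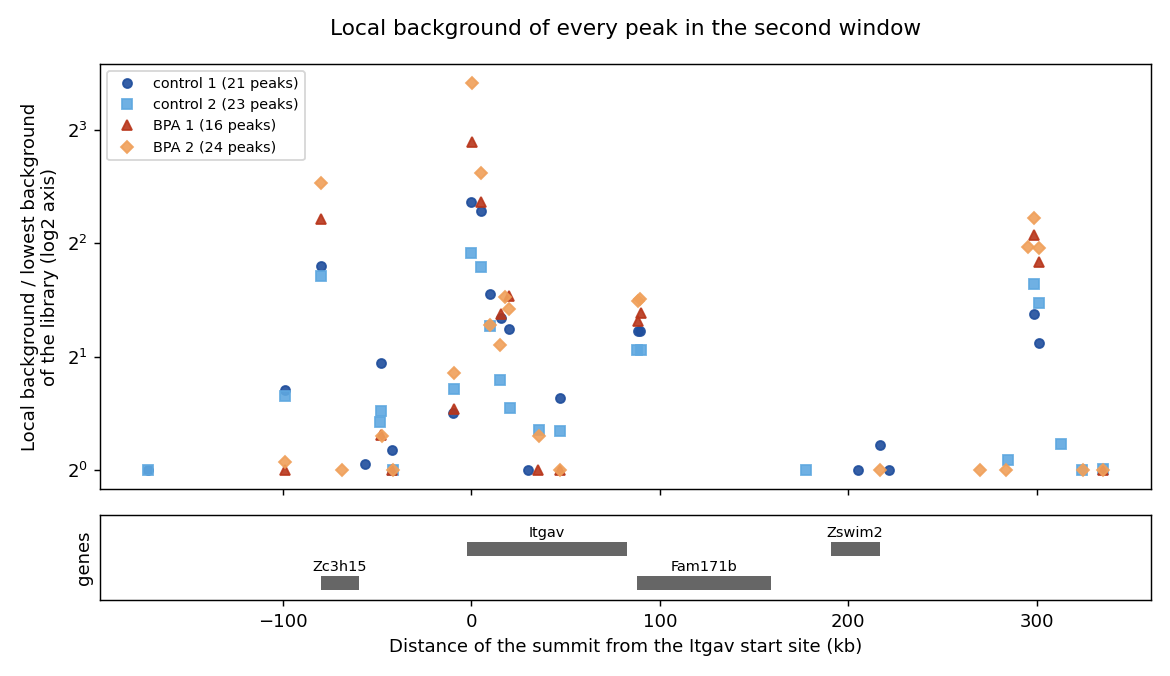
Background multiple (vertical log2 axis) of every peak of the second window against the distance of its summit from the Itgav start site in kb, with gene spans below. The promoter peaks of Zc3h15 and Itgav are higher in BPA 1 and BPA 2, up to 10.6, than in the controls, at most 5.15.

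Of the 26 RefSeq genes in both windows, 5 had a promoter peak (within 500 bp of a start site) in all 4 libraries and 17 had none in any. Set among 13404 genes with a promoter peak in all 4 libraries, Cwc22 had the second largest log2 ratio of background multiples, 1.73, after Isl1 at 1.78. The median over those genes was −1.15. In control 2 its promoter multiple was also the second largest. Cwc22 lies in a stretch selected on background, so nothing is read from these ranks. By distance over the 4 log2 multiples, the nearest genes to Cwc22 were C920009B18Rik (1.74), Fgf10 (1.79), B3galt2 (1.82), and Car3 and Gm41999 (1.87 for both, which share a peak). C920009B18Rik, the nearest, had multiples of 4.69, 7.53, 4.47 and 7.23, and differed from Cwc22 most in control 2 and BPA 2.

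Partners of CWC22 in splicing and the exon junction complex had background ratios near those of most promoters. All 19 genes listed had a promoter peak in each library, and their median log2 ratio was −1.07, near the median of all genes. Both BPA libraries were above both controls at 17 of them, as they were at 90.8% of all 13404 genes. Both controls were above BPA at 1, against 2.7% of all genes. That gene was Magohb, a core component of the complex, with multiples of 3.40, 2.39, 2.05 and 2.15. Eif4a3, the helicase that CWC22 recruits, had multiples of 2.32, 1.78, 5.79 and 6.30. At Aqr, which encodes an intron-binding helicase, they were 2.05, 2.11, 2.15 and 2.41.

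Other parts of the genome were raised in the controls as well. Among 22488 bins of 50 kb with a peak in each library, 1.4% had a lower control median at least 1.5 times the higher BPA median. In the segment this held for 1 of 3 bins, that from 77900001 to 77950000, where the medians were 4.22, 11.9, 1.19 and 1.80 and the ratio of 2.35 ranked 16. The segment bin from 77950001 to 78000000 was not among them, because BPA 1 listed no peak there, although both controls did. A ratio of at least 1.5 was found in 3 of 5 segment bins of 25 kb and 2 of 3 of 100 kb (1.41% and 1.14% of all such bins). With peaks of −log10 q of at least 5 it was found in 2 of 3 of 50 kb (1.48% of all). None of the other 14 bins of 50 kb in the windows reached it in the main setting. The highest ratios elsewhere were 4.85 at chr14:62750001-62800000 (Ints6), 3.60 at chr5:100000001-100050000 (Enoph1 and Hnrnpdl) and 3.13 at chr5:34650001-34700000 (Nop14 and Grk4). In the first of these the control medians were 6.43 and 5.30, so that control 2 was below control 1, and in the chromosome 5 bins each control had 1 peak. No run of called bins was longer than 2. The segment bins hold values on which the stretch was selected, so nothing is read from their distance to the shares of all bins.

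**Figure D5:**
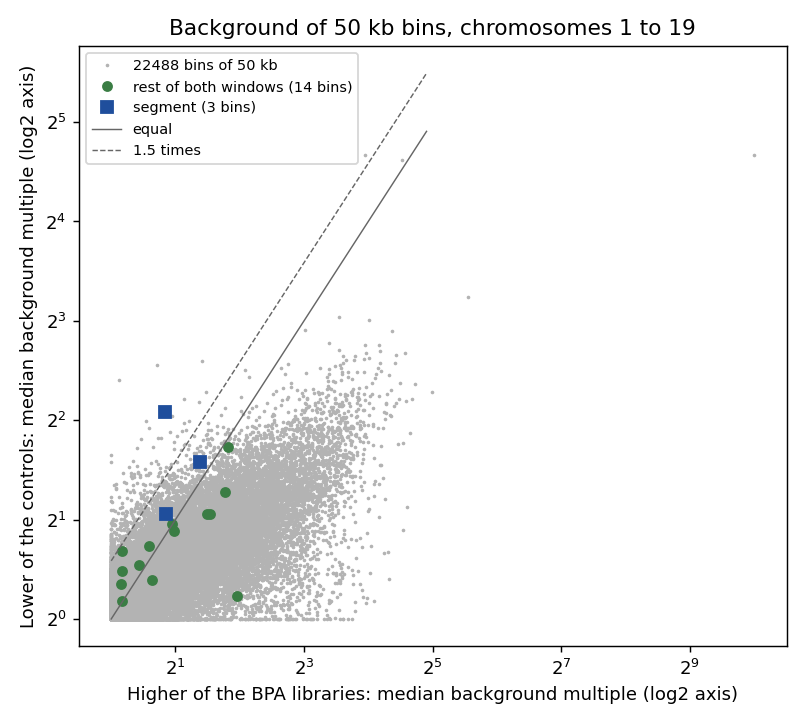
Lower median background multiple of the controls (vertical log2 axis) against the higher of the BPA libraries (horizontal log2 axis) for 22488 bins of 50 kb, with 3 segment bins as squares, the other 14 bins of the windows as circles, and lines for equality and for 1.5 times. Of the segment bins, 1 lies above the line of 1.5 times, as do 1.4% of all bins.

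The tissue label was checked against the lists. All 7 adipocyte genes, Adipoq, Plin1 and Pparg among them, had a promoter peak in each library, and none of 3 hepatocyte genes did. Of 3 endothelial genes 1, 1, 3 and 3 had one in controls 1 and 2 and BPA 1 and 2, and of 6 leukocyte genes 2, 3, 4 and 4. These counts moved with the groups, and their part in the values at Cwc22 was not tested. Nor was the part of the higher promoter signal of the BPA libraries over the genome.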

How the data were processed

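ATAC-seq was done by the Omni-ATAC protocol on nuclei of visceral adipose tissue, 1 mouse per library. Per the labels and the study's methods, the authors trimmed reads with Trim Galore, aligned them to mm10 with Bowtie2 2.3.5.1, kept uniquely mapped reads, removed duplicates with SAMtools and called peaks in each library with MACS2 2.2.7.1, without pooling. The genome size, extension and window given to the caller are not stated in the sources used here. The deposited lists give a score, the fold (a ratio) over local background, and −log10 of the p-value and q-value, which come from the authors. The number of mapped reads is unknown here.

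Pile-up and background were solved from fold and p-value with Python 3 and checked on simulated data. The step worth of 1 read gave whole numbers (within 0.1) for 100% of backgrounds checked. Regions were merged by 1 shared base, reproducible regions needed 50% overlap of both, and promoter peaks lay within 500 bp of a RefSeq start site (GRCm38.p6). Words of 31 bases were counted over the whole reference. Values are compared over 2 mice per group, and no test was run because the members were chosen on these values. Members, gene lists and rules were chosen with earlier results of these data known. Genes named are Cwc22, Zfp385b, others in the windows, the 5 most like Cwc22, and partners of CWC22. Regions named are the 5 with the highest control pile-up in the segment and those in all 4 lists. The 3 bin runs with the highest ratio are also named. Alternatives changed the scaling, the q-value minimum, list lengths, bins, overlaps and thresholds, or left out 1 library.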

Additional observations from a re-analysis of the deposited data

How the results depend on the processing

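The background ratio of the segment (log2 1.71) stayed within 1 SD between replicates under rescaling, a −log10 q of at least 5, equal list lengths, 10 kb bins and a threshold of 3, although the run was then 82.0 kb long, and under both alternatives added after the data had been seen, inner part only and unique bins only. Leaving out 1 library gave 1.08 to 2.33. With a threshold of 1.5 the longest run lay elsewhere, from 77304502 to 77524566 over the end of Zfp385b, and gave 0.34. The flanks gave 0.093 to 0.62 without 1 library. In the second window (−0.42) the ratio was −0.084 at −log10 q of at least 5 and turned to 0.18 over 10 kb bins, and it was −0.62 to −0.22 without 1 library. The pile-up ratio was 0.49 to 2.11 without 1 library, and 1.96 when scaled by the median pile-up. The fold ratio was −0.16 at −log10 q of at least 5 and −0.76 to −0.66 without 1 library. Control-specific regions in the segment numbered 7, 3 at 80% overlap, 3 at −log10 q of at least 5, and 7 to 8 without 1 BPA library. The numbers of reproducible regions at the changed settings are not given, so fewer may have been compared. Bins with raised control background fell to 0.178% at a ratio of at least 2. In the segment they were 1 of 3, but 3 of 5 at 25 kb, 2 of 3 at 100 kb and 2 of 3 at −log10 q of at least 5. Over all bins the shares at those changed settings were 1.41%, 1.14% and 1.48%. The causes were not tested, beyond fewer features at stricter settings. No paired analysis was possible because the values are descriptions that come from no test, and the labels tie no control mouse to a BPA mouse beyond a shared replicate number. With 2 mice per group and 6 to 8 BPA peaks in the segment, differences between mice limit every value.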
